A study of Mus musculus with 2 samples.

Results

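Effector-type regulatory T cells were cells that held transcripts of several genes known from activated, tissue-seeking regulatory T (Treg) cells. Members were chosen by measured transcript counts: a member had at least 1 unique molecular identifier (UMI, a tag that counts each captured transcript once) of 5 or more of 15 genes: S100a4, S100a6, S100a11, Klrg1, Ccr2, Gzmb, Glrx, Lgals1, Rora, Maf, Icos, Itgae, Il1rl1, Fgl2 and Gna15. Members also had fewer than 3 summed UMIs of 3 B cell genes (Cd79a, Cd79b, Ms4a1) and fewer than 5 of 8 cell division genes. The rule found 488 of 4820 kept lymph node cells (10.1%, 95% interval 9.29 to 11.01) and 646 of 6543 kept spleen cells (9.87%, 9.16 to 10.6), so 1134 of 11363 kept cells. The 4126 lymph node and 5686 spleen cells that met the same limits but held fewer than 5 of the 15 genes are called other cells. Every interval covers counting error only.

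The cells were sorted CD4+ CD25+ lymphocytes of healthy female mice, with 1 droplet library from lymph node and 1 from spleen. Every cell came from Mycfl/flFoxp3Cre/WT animals: both copies of Myc are floxed, and Cre recombinase sits in 1 of the copies of Foxp3, a gene on the X chromosome, so each Treg cell expresses either the Cre allele or the intact one. YFP+ and YFP- cells were loaded together in a ratio that the labels do not state, and neither the YFP status of a cell nor the number of animals is stated there. The design addresses how Myc-sufficient and Myc-deficient Treg cells differ within 1 animal. With 1 library per tissue there was no replicate and no test, and effector-type against other cells is the contrast by which the members were chosen, so its values are descriptions.

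Treg cells restrain other immune cells and depend on the transcription factor Foxp3. Resting Treg cells recirculate through lymphoid organs with the help of the chemokine receptor Ccr7, whereas effector Treg cells have met antigen, down-regulate that programme, express costimulatory receptors such as Icos and acquire receptors that lead into tissues. Effector Treg cells are known for Klrg1, a lectin-like inhibitory receptor, and for Il1rl1, the receptor of the alarmin interleukin-33. Myc drives growth and ribosome production and is induced when T cells are activated.

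The libraries held 5079 barcodes with 13324306 UMIs in lymph node and 6840 barcodes with 16868549 UMIs in spleen. Members, chosen by detected genes, were deeper than other cells: their median was 3390 against 1868.5 UMIs in the lymph node and 3094.5 against 1825 in the spleen. Median mitochondrial shares were 2.73% against 2.56% in the lymph node and 2.81% against 2.56% in the spleen. With every cell thinned to 1200 UMIs before the rule was applied, it found 214 of 4568 lymph node cells (4.68%, 4.09 to 5.34) and 387 of 6018 spleen cells (6.43%, 5.82 to 7.08). The 53 barcodes found in both libraries included 11 that belonged to a member in 1 library, and none was a member in both. The B cell limit kept out 14 lymph node and 8 spleen cells with 5 or more of the genes, and the cell division limit kept out 70 and 88.

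Of the 15 genes, 3 belong to the S100 family on 1 chromosome: on the plus strand of GRCm38 chromosome 3, S100a4 spans 90603771 to 90606045, S100a6 spans 90612882 to 90624181, and S100a11 spans 93520488 to 93526287. Reference promoters (RefSeq, GRCm38.p6) were matched for 10 of the 15 genes and read over the 250 bases before the RefSeq start. The AP-1 motif, TGANTCA, which reads the same on both strands and is bound by Jun and Batf family factors, was in 4 of these 10 windows: S100a11, Gzmb, Glrx and Fgl2. It was in 6.749% of 32851 mouse promoter windows of that length. GENCODE M21 lets some of the genes begin further upstream, and the match of Fgl2 lies inside its gene by that annotation, which leaves 3 windows with a match outside the gene. The E-box CACGTG, the core bound by Myc and Max, was in 1 of the 10 (S100a11), against 6.021% of all windows. The motif CACACCC, of the kind that Klf factors bind, was in 0 of the 10, against 6.931%; both were searched on both strands. The windows of 4 of these genes are printed 5′ to 3′ on the strand of the gene, without bases that GENCODE M21 puts inside it (8 of S100a11, 17 of Glrx), because they hold the AP-1 matches (S100a11, Glrx, Gzmb) or belong to a leading member gene without one (S100a4), with AP-1 matches in capitals. They lie at chr3:93520246-93520487 (S100a11, plus strand), chr13:75839635-75839867 (Glrx, plus), chr14:56262335-56262584 (Gzmb, minus) and chr3:90603520-90603769 (S100a4, plus).
S100a11: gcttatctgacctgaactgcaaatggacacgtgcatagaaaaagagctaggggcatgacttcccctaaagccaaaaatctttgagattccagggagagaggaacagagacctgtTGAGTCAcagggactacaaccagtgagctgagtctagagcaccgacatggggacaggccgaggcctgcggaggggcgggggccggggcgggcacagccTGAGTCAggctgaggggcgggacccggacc
Glrx: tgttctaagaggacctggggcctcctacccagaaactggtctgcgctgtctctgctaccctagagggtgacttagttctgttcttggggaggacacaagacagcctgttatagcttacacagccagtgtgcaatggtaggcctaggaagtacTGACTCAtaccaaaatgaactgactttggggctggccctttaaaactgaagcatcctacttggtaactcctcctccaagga
Gzmb: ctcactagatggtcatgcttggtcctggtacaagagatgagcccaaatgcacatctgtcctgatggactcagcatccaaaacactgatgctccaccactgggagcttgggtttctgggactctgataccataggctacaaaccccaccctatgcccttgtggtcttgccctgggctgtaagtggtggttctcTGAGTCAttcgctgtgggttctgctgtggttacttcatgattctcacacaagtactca
S100a4: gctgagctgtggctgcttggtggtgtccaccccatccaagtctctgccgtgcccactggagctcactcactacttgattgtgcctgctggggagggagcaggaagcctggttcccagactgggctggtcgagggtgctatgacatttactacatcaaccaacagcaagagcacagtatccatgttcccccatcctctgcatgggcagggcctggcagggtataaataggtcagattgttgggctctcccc
The matches begin 136 and 38 bases before the RefSeq start of S100a11, 98 before that of Glrx and 58 before that of Gzmb; by GENCODE they begin 128 and 30 bases before S100a11, 81 before Glrx and 132 before Gzmb. A match describes the letters and does not show binding.

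The genes that chose the cells were not equally common among them. The galectin Lgals1 and the calcium-binding proteins S100a11, S100a6 and S100a4 led: a UMI of Lgals1 was found in 88.9% of lymph node and 94.3% of spleen members, of S100a11 in 89.96% and 91.8%, of S100a6 in 80.3% and 87.5%, and of S100a4 in 66.4% and 80.8%. Maf, a transcription factor of effector T cells, was found in 63.9% and 59.0%, and the glutaredoxin Glrx in 61.1% and 48.5%. The surface receptors Klrg1 (32.4% and 25.1%), Ccr2 (34.6% and 43.2%) and Il1rl1 (11.7% and 12.7%) and the granule protease Gzmb (11.3% and 12.5%) were each detected in a minority. Members held a median of 7 of the 15 genes in both libraries, and 78 lymph node (15.98%) and 142 spleen members (21.98%) held 10 or more. The group is therefore a range: 142 lymph node and 125 spleen members stood at exactly 5 genes, next to 211 and 182 other cells at exactly 4, with median depths of 3269.5 against 2899 UMIs in the lymph node and 2776 against 3238 in the spleen.

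**Figure D1:**
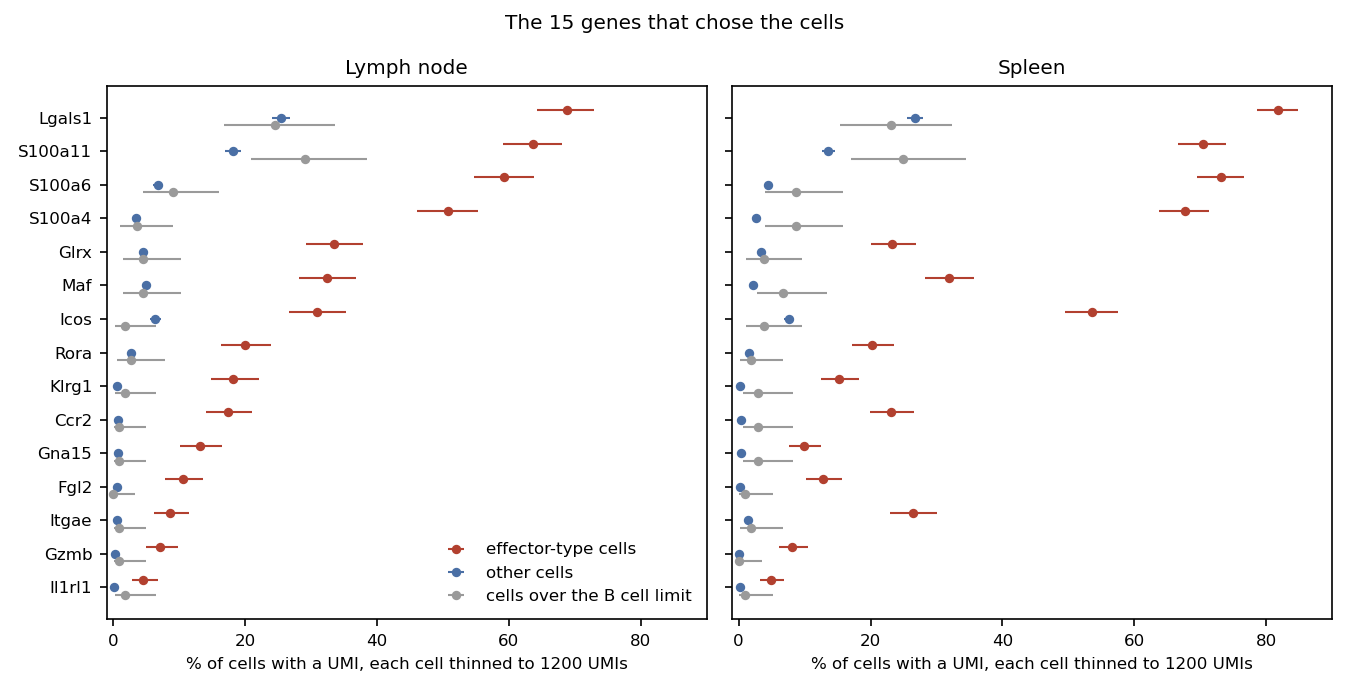
Share of cells with a UMI of each of the 15 genes (x axis, percent, each cell thinned to 1200 UMIs) in effector-type cells, other cells and cells over the B cell limit, in lymph node and spleen. Points are shares and bars exact binomial 95% intervals; the genes chose the cells, so the gap shows the choice, and the order runs from Lgals1 (68.7% in lymph node, 81.9% in spleen) to Il1rl1 (4.497% and 4.85%).

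In summed counts scaled to a common library total (CPM, the count that a gene would have in a group of standard size), S100a4 stood at 1030 CPM in lymph node members against 34.0 in other cells, and at 1367 against 25.1 in spleen. Klrg1 was at 220 CPM against 5.23 in the lymph node and at 153 against 1.85 in the spleen. Gzmb was at 88.1 against 2.72 and at 120 against 1.16. These levels are given to show the size of the gap that the choice made.

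Members carried more transcripts of the Treg lineage factors Foxp3 and Ikzf2 than other cells, whereas other Treg genes were divided. Foxp3 (plus strand of chromosome X, 7573644 to 7595245) stood at 177 CPM in lymph node members and 106 in other cells, a ratio of 1.67 (1.47 to 1.89). In spleen it was at 199 and 92.9 CPM, a ratio of 2.14 (1.91 to 2.39). With at least 1000 genes per cell the Foxp3 ratios were 1.34 in lymph node and 1.61 in spleen. Ikzf2 (Helios, an Ikaros family factor that stabilises Treg identity; chromosome 1, 69531214 to 69687245, minus strand) was at 1117 and 646 CPM in lymph node and at 1198 and 553 CPM in spleen. At 1200 UMIs per cell, 22.5% of lymph node and 23.5% of spleen members had a Foxp3 UMI, against 10.1% and 8.75% of other cells. The 110 lymph node and 106 spleen cells over the B cell limit, which serve as a gauge of free RNA and of mixed droplets, had 1.82% and 3.85%. For Ikzf2 the thinned shares were 68.7% and 63.3% of members, 42.4% and 36.9% of other cells, and 21.8% and 14.4% of cells over the B cell limit, whose median depth was 3120 and 2338 UMIs. Without thinning, 43.4% of lymph node and 43.2% of spleen members had a Foxp3 UMI, against 17.9% and 15.5% of other cells and 14.5% and 10.4% of cells over the B cell limit.

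Il2ra, which encodes CD25, the receptor chain on which the cells were sorted, was lower in members in CPM: 109 against 151 CPM in lymph node (ratio 0.720, 0.619 to 0.834) and 152 against 201 CPM in spleen (ratio 0.757, 0.674 to 0.847). The gap was smaller with other cells weighted to the depth of members, at ratios of 0.992 in lymph node and 0.901 in spleen. Without thinning a UMI of Il2ra was found in more members than other cells (28.3% against 25.4% in the lymph node, 32.8% against 30.4% in the spleen), and at 1200 UMIs in fewer (13.3% against 16.4%, 14.1% against 19.98%). Ctla4, an inhibitory receptor that removes costimulatory ligands from partner cells, was higher, at 256 against 166 CPM in the lymph node and 444 against 165 CPM in the spleen. Over the Treg identity list, 6 of 14 tested genes were at least 1.5-fold higher and 2 at least 1.5-fold lower in lymph node, and 7 and 2 of 14 in spleen. Over all 5079 genes tested in lymph node 9.71% were that much higher and 3.37% that much lower, and over 5143 in spleen 13.2% and 3.71%. A gene was tested when its mean over both groups was at least 20 CPM, and the 15 genes of the rule were left out of every list. A gene scarce in either group entered only by its level in the other, so it could only count as different. Genes that entered the counts below in this way, through their level in members, include Ahr, Ccr10 and Cxcr6 in spleen. Ccr4, Ebi3, Lgals3 and Lmna did so in both libraries. The list is not complete, so the counts of higher genes rest in part on such genes. The actin-capping protein Capg (658 against 217 CPM in lymph node, 1157 against 434 in spleen) and the costimulatory receptor Tnfrsf4 (OX40; 617 against 327 and 929 against 439 CPM) were on the higher side. On the lower side stood Gpr83, an orphan receptor of resting Treg cells (25.6 against 114 and 25.6 against 136 CPM), and Lrrc32 (GARP, which holds latent TGF-beta at the surface; 31.0 against 65.8 and 28.3 against 74.3 CPM).

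The added feature ICRE gave few UMIs in members. The deposited gene table holds it beside the mouse genes, no source used here states its sequence, and that it marks the allele with Cre is assumed. Of the summed UMIs of ICRE and Foxp3, ICRE gave 1 of 332 in lymph node members (0.301%, 0.00763 to 1.67) and 7 of 457 in spleen members (1.53%, 0.618 to 3.13). In other cells it gave 427 of 1439 (29.7%, 27.3 to 32.1) in lymph node and 630 of 1835 (34.3%, 32.2 to 36.6) in spleen. Scaled to all UMIs, ICRE stood at 0.534 CPM in lymph node members against 44.7 in other cells, and at 3.09 against 48.6 in spleen. A UMI of ICRE was found in 0.205% of lymph node and 0.929% of spleen members, against 7.27% of lymph node (8 of 110) and 2.83% of spleen cells (3 of 106, interval 0.588 to 8.05) over the B cell limit, and 8.94% and 9.46% of other cells. At 1200 UMIs it was found in 0 of 467 lymph node and 2 of 618 spleen members (0.324%), against 1 of 110 (0.909%) and 0 of 104 (0% to 3.48%) of the cells over that limit. In spleen the level in members therefore cannot be told apart from free RNA with so few cells as a gauge. The share compares transcripts of different capture and is not a share of cells. Its 8 UMIs came from 7 cells, 1 in lymph node and 6 in spleen, of which the lymph node cell and 3 spleen cells also held a Foxp3 UMI.

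Members with few and with many of the rule's genes both had low ICRE shares. The share was 0 of 89 UMIs in lymph node (interval 0 to 4.06%) and 1 of 63 (1.59%) in spleen for members with exactly 5 genes. It was 0.592% in lymph node and 1.21% in spleen for those with 7 or more. Just outside the threshold, other cells with exactly 4 genes had 2 of 85 (2.35%) in lymph node and 4 of 84 (4.76%) in spleen. Among cells with an Ikzf2 UMI the shares were 0.328% for members against 26.9% for other cells in lymph node, and 1.16% against 29.5% in spleen. The cells kept out by the cell division limit also had low shares, 1 of 75 UMIs (1.33%) in lymph node and 2 of 132 (1.52%) in spleen. ICRE differed between the groups in each comparison of members with other cells that follows, and its part in those differences was not tested.

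With every cell at 1200 UMIs, levels differed with the number of rule genes detected. From 0 to 5 genes and to 6 or more, Ikzf2 stood at 590, 690, 794, 1037, 1150, 1436 and 1812 CPM in lymph node. In spleen it stood at 482, 600, 779, 874, 996, 1206 and 1447 CPM. The ICRE share of ICRE and Foxp3 UMIs stood at 47.5%, 32.9%, 20.2%, 19.1%, 0%, 0% and 0% in lymph node and at 45.6%, 42.9%, 36.8%, 18.4%, 6.67%, 0% and 0% in spleen. The values of 0% came from few UMIs, with an upper bound of 8.04% for 6 or more genes in lymph node (44 UMIs). Ikzf2 was higher in each successive bin, and the ICRE share was lower or equal, in both libraries. Bcl2, an inhibitor of cell death that is abundant in resting T cells (chromosome 1, 106538178 to 106714274, minus strand), was at 997 CPM with 0 genes and at 33.6 with 6 or more in lymph node, and at 1227 and 94.6 in spleen. S100a10, the partner of annexin A2 and no gene of the rule, was at 724 CPM with 0 genes and 3865 with 6 or more in lymph node, and at 674 and 3080 in spleen. Ribosomal protein transcripts made up 34.2% of UMIs with 0 genes and 22.6% with 6 or more in lymph node, and 33.5% and 23.7% in spleen. Izumo1r (folate receptor 4, a Treg surface protein) was highest in between, at 1304 CPM with 4 genes in lymph node and 948 with 3 genes in spleen, against 582 and 467 with 6 or more. The depth at which cells were thinned was shared by all bins, and the bins of 5 and of 6 or more held 65 and 149 lymph node and 114 and 273 spleen cells.

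**Figure D2:**
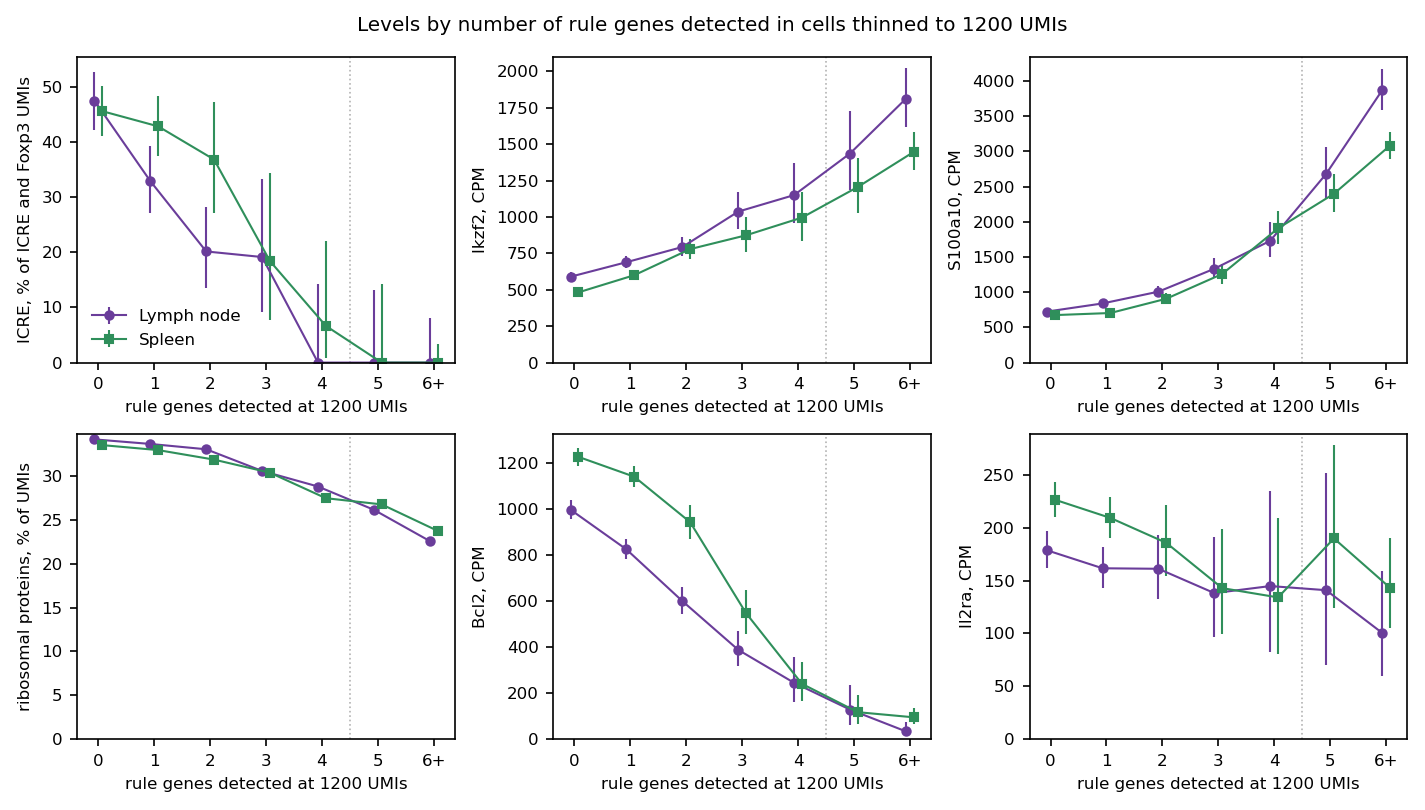
Levels in cells thinned to 1200 UMIs against the number of the 15 genes detected (x axis, 0 to 6 or more) in lymph node and spleen: the ICRE share (percent of ICRE and Foxp3 UMIs), Ikzf2, S100a10, Bcl2 and Il2ra (CPM) and ribosomal protein transcripts (percent of UMIs). Points are summed values, bars exact 95% intervals of counting error, and the dotted line is the threshold of 5; Ikzf2 and S100a10 are higher, and Bcl2 and the ICRE share lower, in bins with more of the genes.

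Transcription factors known from effector Treg cells were higher in members as a group. Of 8 tested genes, 6 in lymph node and 8 in spleen were at least 1.5-fold higher and 0 lower, with median log2 ratios of 0.85 and 1.56, where the median over all genes tested was 0.10 and 0.13. Prdm1 (Blimp-1, which drives terminal effector differentiation) was at 25.1 against 5.86 CPM in the lymph node and 37.1 against 2.39 CPM in the spleen. Id2, an inhibitor of E proteins, was at 473 against 185 CPM in the lymph node and 693 against 101 CPM in the spleen. Ahr, a sensor of aromatic ligands at barrier sites, was at 23.5 against 7.32 and 37.1 against 4.78 CPM, and Runx3 at 57.2 against 28.2 and 69.3 against 18.2 CPM. Prdm1 in both libraries and Ahr in lymph node were under the minimum level for the count.

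Suppressor effectors were also higher, with 6 of 8 tested genes in lymph node and 6 of 7 in spleen at least 1.5-fold higher, 0 lower and medians of 0.97 and 1.40. Ebi3, a chain of interleukin-35, was at 37.4 against 13.8 CPM in the lymph node and 37.5 against 7.48 in the spleen. Penk, which encodes enkephalin, was at 57.2 against 32.5 and 55.2 against 16.2 CPM. The inhibitory receptor Lag3 was at 69.4 against 31.8 and 61.4 against 23.3 CPM. Among granule proteases and their inhibitors, 7 of 15 tested genes in lymph node and 7 of 13 in spleen were higher and 1 in each was lower. The proteoglycan Srgn, which packs granules, was at 1167 against 501 CPM in the lymph node and 1202 against 399 in the spleen.

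Trafficking genes were divided by destination. Of the lymph node homing list, 6 of 7 tested genes in each library were at least 1.5-fold lower in members, and 0 in lymph node and 1 in spleen higher, with medians of -1.07 and -1.18. Ccr7, the receptor that guides T cells into lymph nodes, was at 51.8 against 224 CPM in the lymph node and 69.3 against 364 CPM in the spleen. Klf2, a transcription factor of resting, recirculating T cells, was at 530 against 1113 CPM in the lymph node and 508 against 1154 CPM in the spleen. Its ratios of 0.477 and 0.440 became 0.829 and 0.667 with other cells weighted to the depth of members, and 0.788 and 0.659 with at least 1000 genes per cell, so the size of the Klf2 gap moved with depth. With those weights the list medians were -0.69 and -0.81. Of the tissue homing list, 8 of 13 tested genes in lymph node and 10 of 14 in spleen were higher, with medians of 1.20 and 1.29, and 0 and 1 lower. Several of its members are chemokine receptors, of which Ccr10 in lymph node and Ccr3 in both libraries were under the minimum level for the count. Ccr10, a receptor for epithelial chemokines, was at 20.3 against 0.314 CPM in the lymph node and 48.6 against 1.23 in the spleen. Ccr3 was at 21.4 against 1.05 and 27.4 against 0.540 CPM, and Ccr4 at 36.9 against 5.54 and 37.5 against 3.47 CPM. Cxcr6 was at 65.2 against 25.6 CPM in the lymph node and 261 against 8.79 CPM in the spleen, a gene whose spleen level is taken up with the markers of other cell types.

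Quiescence factors were lower in members in both libraries: 10 of 15 tested genes in lymph node and 11 of 15 in spleen were at least 1.5-fold lower and 0 higher, with medians of -0.90 and -0.92, or -0.47 and -0.80 with other cells weighted to the depth of members. Bcl2 was at 142 CPM in lymph node members against 744 in other cells, a ratio of 0.191 (0.168 to 0.216), and at 168 against 1006 in spleen, a ratio of 0.167 (0.151 to 0.185). With those weights the Bcl2 ratios were 0.305 and 0.238, and with the rule applied at 1200 UMIs 0.0594 and 0.122. Bach2, a repressor that holds back effector genes, was at 11.2 against 45.4 and 9.27 against 51.0 CPM, and Satb1, a chromatin organiser, at 72.1 against 194 and 61.4 against 195 CPM. Other survival genes stood on the other side: Bcl2a1d was at 70.0 against 34.8 CPM in the lymph node and 88.8 against 32.2 in the spleen, and Bcl2l1 (Bcl-xL) at 36.3 against 20.5 and 55.2 against 28.2 CPM. Reads of Bcl2a1d may be split with its near-identical copies.

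**Figure D3:**
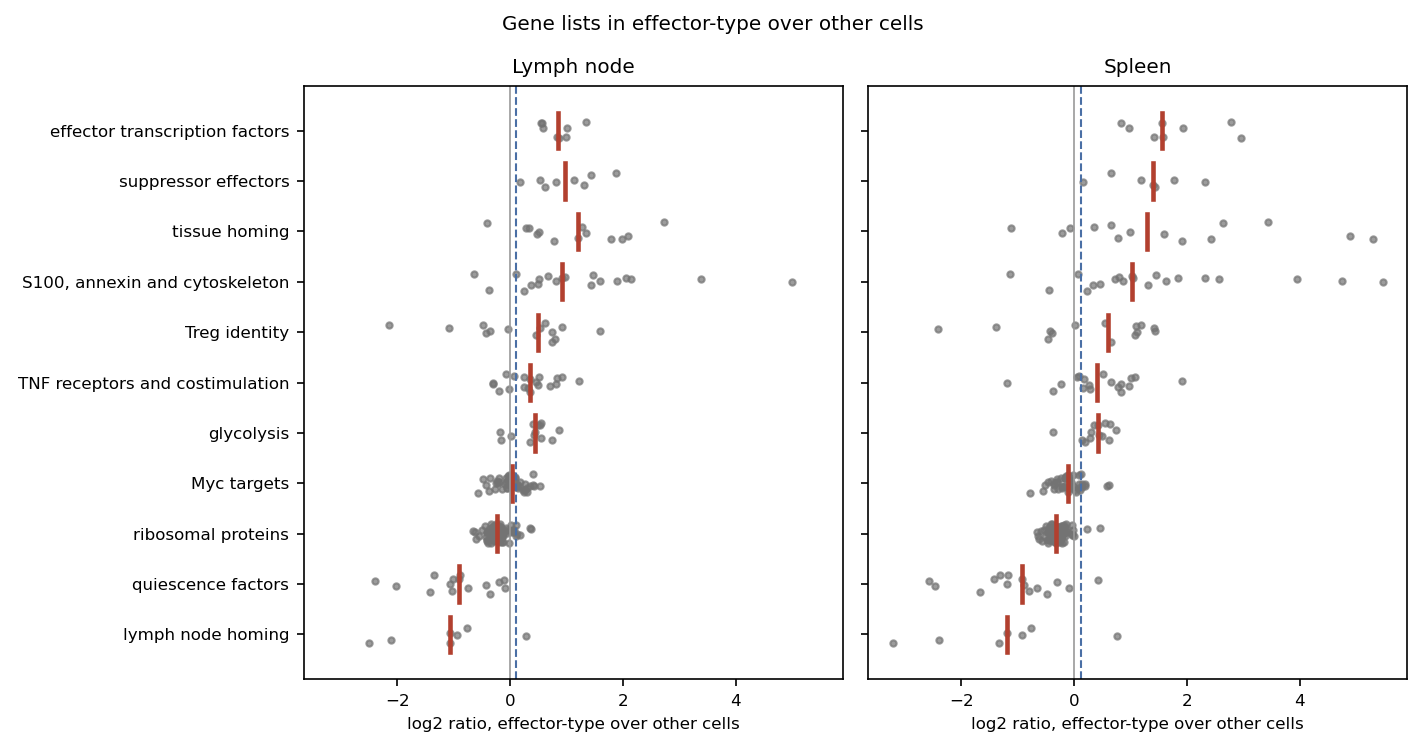
Log2 ratio of CPM in effector-type over other cells (x axis) for each tested gene of 11 lists, in lymph node and spleen. Grey points are genes, red bars list medians, the dashed line the median of all genes tested (0.10 and 0.13) and the grey line 0; effector transcription factors, suppressor effectors, tissue homing and S100 genes lie mostly to the right, quiescence and lymph node homing genes mostly to the left.

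Genes of the membrane skeleton and calcium-binding families beyond those in the rule were higher as well, with 12 of 19 tested genes in lymph node and 14 of 20 in spleen at least 1.5-fold higher, 1 lower in each, and medians of 0.91 and 1.03. Lgals3 (galectin-3; chromosome 14, 47367751 to 47386160, plus strand) had the largest ratio in both libraries among the 12 genes named on the higher side. It was at 93.5 CPM in lymph node members against 2.93 in other cells, a ratio of 31.9 (21.3 to 49.4), and at 184 against 4.16 in spleen, a ratio of 44.2 (33.2 to 59.9). A UMI of Lgals3 was found in 77 lymph node and 190 spleen members. Vim (vimentin) was at 754 against 202 CPM in the lymph node and 1047 against 339 in the spleen, Anxa2 (annexin A2) at 106 against 25.5 and 146 against 29.3, and Lmna (lamin A) at 47.0 against 4.496 and 74.2 against 4.78 CPM.

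By the ratio bound farthest from 1 in both libraries, the genes of the higher side were Lgals3, Myo1f, Nav2, Ctla2a, Osbpl3, Ahnak, Fam129a, Anxa2, Dstn, Cxcr3, Vim and S100a10. Myo1f, a class I myosin of leukocytes, was at 71.6 against 5.96 CPM in the lymph node and 75.1 against 2.16 in the spleen, and the protease inhibitor Ctla2a at 75.3 against 13.5 and 136 against 6.63 CPM. Cxcr3, which binds chemokines induced by interferon, was at 245 against 70.9 CPM in lymph node (ratio 3.46, 3.07 to 3.90) and 116 against 18.7 in spleen (ratio 6.22, 5.21 to 7.44). On the lower side stood Bcl2, Ly6c1, Ccr7, Gpr83, Igf2r, Chchd10, Actn1, Itm2a, Satb1, Klf2, Ssbp2 and Rcn1. Ly6c1, a surface antigen of resting T cells, was at 28.8 against 164 CPM in the lymph node and 19.0 against 177 in the spleen.

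Receptors for cytokines were divided, with 2 of 15 tested genes higher and 3 lower in lymph node and 5 higher and 5 lower of 16 in spleen. Il18r1, a chain of the interleukin-18 receptor, was at 65.2 against 18.3 CPM in the lymph node and 146 against 19.7 in the spleen, and Il12rb1 at 31.5 against 7.74 and 34.4 against 3.47 CPM. Il12rb1 was under the minimum level for the count in both libraries. Il4ra stood at 31.0 against 62.3 and 37.5 against 71.4 CPM. Of the TNF receptor and costimulation list, 5 of 19 genes in lymph node and 8 of 18 in spleen were higher, with 0 and 1 lower. Its member Tnfrsf1b (TNF receptor 2, which supports Treg growth) was at 90.8 against 39.0 CPM in the lymph node and 122 against 32.5 in the spleen. The chemokine Ccl5 was at 334 against 118 CPM in the lymph node and 182 against 26.8 CPM in the spleen.

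Growth genes were divided. Ribosomal protein genes were mostly lower in members, by small amounts: 69 of 80 in lymph node and 77 of 80 in spleen had a log2 ratio below 0, with medians of -0.24 and -0.32, and 3 and 4 were at least 1.5-fold lower. Rps27 was at 8860 CPM in lymph node members against 13920 in other cells, and at 7958 against 12032 in spleen. Rps29 was at 6064 against 9191 and 5404 against 8292 CPM. Myc targets had medians of 0.03 in lymph node and -0.11 in spleen, with 0 of 46 genes past 1.5-fold in lymph node and 1 higher and 1 lower in spleen. With other cells weighted to the depth of members their medians were -0.33 and -0.41. Nop56, of the box C/D ribonucleoprotein, was at 66.2 against 98.4 CPM in the lymph node and 71.1 against 122 in the spleen. Myc itself was at 18.7 CPM in lymph node members against 33.1 in other cells (ratio 0.564, 0.386 to 0.801) and at 35.8 against 40.1 in spleen (ratio 0.892, 0.697 to 1.13), where the spleen interval includes equality. The size of the Myc ratio depended on the cells taken: in lymph node it was 0.211 with the rule applied at 1200 UMIs, and in spleen 0.432 without cells with other-type markers when Cd74 and Cst3 count as markers. The labels do not say which part of Myc is floxed, so Myc UMIs cannot be read as a sign that the gene is intact.

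Glycolysis genes had medians of 0.45 and 0.42, or 0.18 and 0.16 with those depth weights, with 2 of 13 genes in lymph node and 3 of 13 in spleen past 1.5-fold higher and 0 lower. Tpi1, triose phosphate isomerase, was at 82.8 against 45.4 CPM in the lymph node and 79.9 against 48.1 in the spleen, and Pgam1 at 99.9 against 59.6 and 107 against 70.0 CPM. Sterol synthesis genes had medians of 0.34 (3 of 11 higher) and 0.23 (2 of 9 higher), among them Mvd, at 36.3 against 16.9 and 27.4 against 15.1 CPM. Translation factors (0.06 and 0.01), mitochondrially encoded genes (0.01 and 0.01) and oxidative phosphorylation genes (0.12 and 0.11) had medians near those of all genes. Scaling by the median ratio of genes moved all log2 ratios by -0.13 in lymph node and -0.15 in spleen, and the small positive medians of oxidative phosphorylation, translation factors (-0.07 and -0.14) and mitochondrially encoded genes (-0.12 and -0.14) changed sign with it in both libraries, as did that of Myc targets in lymph node (-0.10). Of the immediate early genes, Jun was at 90.3 against 144 CPM in the lymph node and 81.2 against 163 in the spleen, whereas Fos was at 89.2 against 67.3 and 163 against 72.7 CPM. Among redox enzymes Gsta4, a glutathione transferase, was at 11.2 against 49.5 and 16.3 against 69.6 CPM, and Gpx1, a glutathione peroxidase, at 234 against 148 and 342 against 157 CPM.

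Set against other cells that also held a Foxp3 UMI, members again had more effector and less quiescence transcripts, with list medians given here, while the Treg identity list was near level in lymph node. That comparison took 212 of the 488 lymph node members against 738 other cells and 279 of the 646 spleen members against 879. ICRE was found in 1 of the 212 and 22 of the 738 lymph node cells and in 3 of the 279 and 39 of the 879 spleen cells. Over all genes tested 15.2% were at least 1.5-fold higher and 3.66% lower in lymph node (of 5005), and 19.7% and 4.02% in spleen (of 5050). Effector transcription factors were higher for 5 of 8 genes in lymph node and 10 of 10 in spleen (medians 0.79 and 1.65, against 0.16 and 0.21 for all genes tested). Suppressor effectors were higher for 5 of 7 in each (0.77 and 1.09), tissue homing genes for 7 of 11 and 11 of 15 (0.97 and 1.23). Quiescence factors were lower for 8 of 15 in lymph node and 10 of 15 in spleen (medians -0.59 and -0.78). The Treg identity list had medians of -0.05 and 0.13, with 4 of 14 genes higher and 2 lower in lymph node and 6 and 2 of 14 in spleen.

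Within these Foxp3-detected cells Ikzf2 was at 1253 against 700 CPM in the lymph node and 1413 against 618 in the spleen, and Ctla4 at 307 against 180 and 559 against 183 CPM. Il2ra was at 134 against 150 CPM in the lymph node and 194 against 218 in the spleen. Ribosomal protein medians were -0.37 and -0.48. Of 80 such genes, 4 in lymph node (5%) and 25 in spleen (31.25%) were at least 1.5-fold lower, against 3.66% and 4.02% of all genes tested. The interferon response list, among it Ifi27l2a (2601 against 1361 CPM in lymph node, 2889 against 1404 in spleen), had 6 of 21 genes higher in lymph node and 11 of 24 in spleen. Sterol synthesis genes were higher for 9 of 14 in lymph node and 3 of 9 in spleen. The 6 genes named on each side included Ttc39c (59.0 against 7.01 CPM in lymph node, 82.9 against 4.07 in spleen) and, on the lower side, Tnfsf8, the CD30 ligand (16.9 against 61.2 and 17.0 against 60.3 CPM).

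The regulatory label was set against markers of Treg cells and of other cell types. A UMI of Foxp3 or Ikzf2 was found in 431 lymph node (88.3%) and 546 spleen members (84.5%), against 61.1% and 53.7% of other cells and 40.9% and 32.1% of cells over the B cell limit. These genes therefore gave UMIs in many cells over that limit as well, and the shares do not count Treg cells. In 57 lymph node (11.7%) and 98 spleen members (15.2%) there was no UMI of Foxp3, Ikzf2 or ICRE. The list of conventional activated T cells (Cd40lg, Il2, Il7r, Tnfsf8, Tnfsf11, Igfbp4) gave 2 or more UMIs in 38.3% of lymph node members against 21.7% of other cells, and in 50.6% against 24.7% in spleen. It summed to 452 against 406 CPM in the lymph node and 648 against 450 in the spleen. Il7r gave most of the sum in members, at 295 against 216 CPM in the lymph node and 546 against 159 in the spleen. Tnfsf11 was also higher in lymph node members (31.0 against 26.9 CPM). The other genes of the list, and Tnfsf11 in spleen, were lower in members or near level. Igfbp4 was at 7.48 against 36.0 and 25.6 against 145 CPM. The follicular list (Bcl6, Cxcr5, Pdcd1, Il21, Sostdc1) reached 2 UMIs in 6.35% against 1.91% of lymph node and 3.25% against 1.51% of spleen cells. Members were deeper, and the part of depth and of such cells in the results was not tested. T cell genes (Cd3d, Cd3e, Cd3g, Cd4, Lck, Cd2) summed to 5091 CPM in lymph node members against 4632 in other cells, and to 5053 against 4786 in spleen. However, 34 lymph node members (6.97%) and 108 spleen members (16.7%) held 2 or more UMIs of a list of markers of CD8 T, natural killer or innate lymphoid, gamma delta T, myeloid or B cells, against 3.15% and 2.83% of other cells. Cd74 and Cst3 were not counted for this. By list, gamma delta T markers were found at that level in 63 spleen members (9.75%), natural killer or innate lymphoid markers in 38 (5.88%), myeloid markers in 22 (3.41%), B markers in 12 (1.86%) and CD8 markers in 8 (1.24%). In lymph node the counts were 8, 14, 6, 7 and 8. Gamma delta T markers summed to 26.7 CPM in lymph node members against 27.5 in other cells, and to 198 against 31.2 in spleen. Natural killer or innate lymphoid markers summed to 73.2 against 49.1 CPM in the lymph node and 147 against 23.2 in the spleen. B markers summed to 326 against 197 CPM in the lymph node and 848 against 180 in the spleen. Myeloid markers summed to 213 against 150 and 429 against 147 CPM. These sums include Cd74 and Cst3, of which single spleen cells gave 406 and 221 UMIs. The B cell gene Ebf1 and the monocyte gene Cd14 were at 0 UMIs in members of both libraries. Other cells also had little, with Ebf1 at 1.15 and 0.771 CPM and Cd14 at 0.105 and 0, so these zeros tell little. In lymph node members the gamma delta genes Trdv4, Sox13 and Cd163l1 were also at 0, and in other cells there at 0, 0 and 0.105 CPM.

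The 108 spleen members with such markers had levels of S100a4 and S100a6 near those of the rest, but lower levels of the Treg genes. Both S100 genes belong to the rule that chose all members, so their presence on both sides follows in part from the choice. S100a4 was at 1410 CPM in them against 1358 in the 538 without, and S100a6 at 2420 against 2057. Foxp3 was at 44.4 against 232 CPM, Ikzf2 at 352 against 1382 and Ctla4 at 73.9 against 524. A Foxp3 UMI was found in 11.1% of them against 49.6% of the 538. Klrg1 was at 22.2 against 181 CPM and Gzmb at 17.2 against 143. Higher in them were Cxcr6 (855 against 132 CPM), Id2 (1639 against 486), Il7r, the interleukin-7 receptor chain (1203 against 402), and Tmem176a (611 against 82.8). The gamma delta constant gene Trdc (325 against 1.08) is among the markers that chose these cells, so its gap follows from the choice. In lymph node the 34 such members had Foxp3 at 105 against 184 CPM in the other 454 and Cxcr6 at 252 against 47.4. Without these cells spleen members still had Id2 at 486 CPM against 101 in other cells, Cxcr6 at 132 against 8.79, and Foxp3 at 232 against 92.9.

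**Figure D4:**
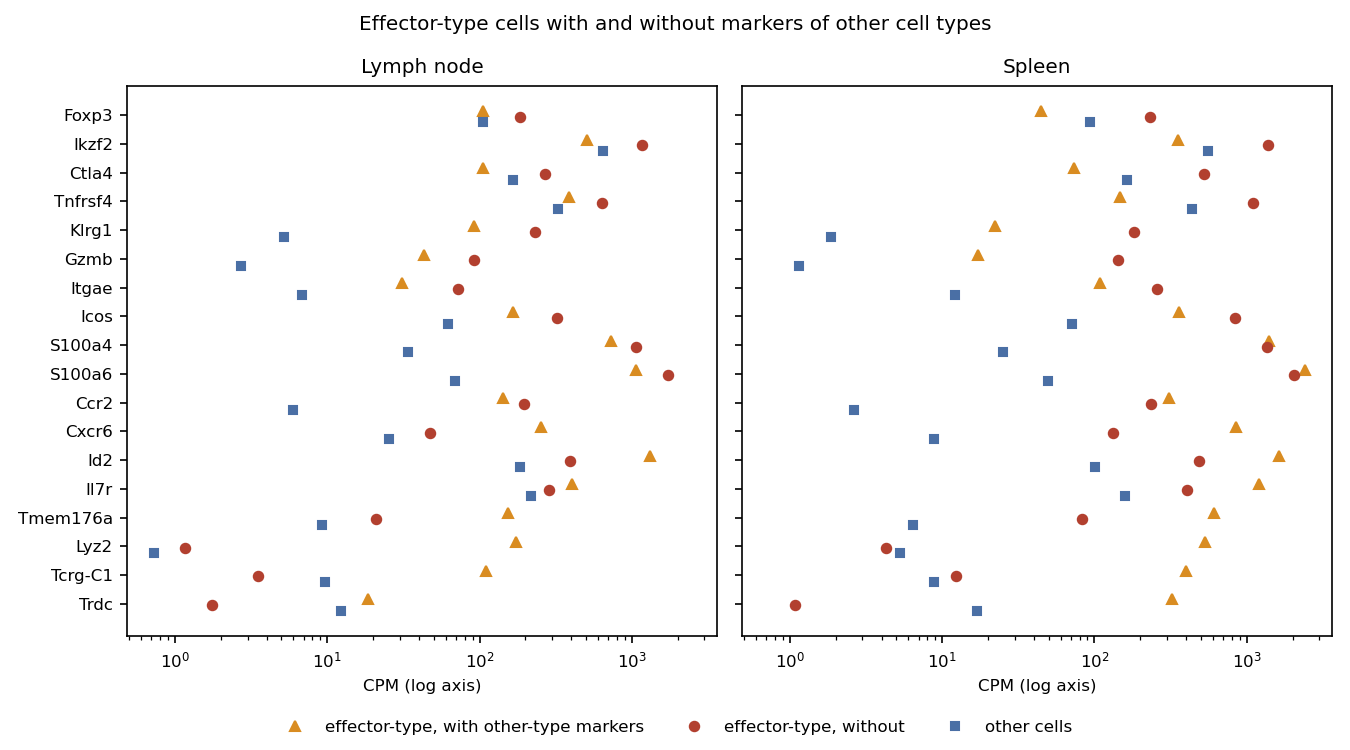
CPM (x axis, log) of Treg, effector and other-type genes in effector-type cells with and without 2 or more UMIs of other-type markers, and in other cells, for lymph node and spleen. Each point is a summed level. In spleen the marked cells have S100a4 and S100a6, genes of the rule that chose all members, near the rest (1410 and 2420 CPM). Their Foxp3 is at 44.4 against 232 CPM. Lyz2, Tcrg-C1 and Trdc mark them because they are among the markers.

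Members also differed among themselves by which receptor they held. The splits that follow compare members with and without a UMI of 1 gene, so cells without one include cells in which it was not captured. Their leading genes were chosen after the values were seen. Ccr2, a receptor for monocyte-attracting chemokines, divided 169 from 319 lymph node and 279 from 367 spleen members. Members with it had more Gzmb (242 against 17.2 CPM in lymph node, 235 against 29.9 in spleen), a gene that also counts in the rule. They had more Ly6c2 (30.4 against 4.69 and 22.1 against 1.57 CPM) and Cxcr6 (128 against 35.9 and 422 against 135 CPM). They had less Penk (13.5 against 77.3 and 27.1 against 77.2 CPM), less of the inhibitory receptor Pdcd1 (15.2 against 102 and 26.1 against 75.6 CPM), less Cd83 (16.9 against 137 and 34.2 against 161 CPM) and less Izumo1r (492 against 1263 and 364 against 776 CPM). The sides also differed in other ways: members with Ccr2 held a median of 8 against 6 of the rule's genes in the lymph node and 9 against 6 in the spleen. Other-type markers were found in 13 of the 169 against 21 of the 319 lymph node members and in 65 of the 279 against 43 of the 367 spleen members. Without those cells Cxcr6 was at 108 against 19.6 and 223 against 71.4 CPM, Gzmb at 255 against 17.9 and 310 against 32.1, Cd83 at 18.6 against 141 and 40.6 against 178, and Izumo1r at 507 against 1303 and 444 against 846. Ly6c2 then had 11 UMIs with Ccr2 and 2 without it in lymph node, and 1 and 2 in spleen, so its spleen difference rested on the marked cells.

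Klrg1 divided 158 from 330 lymph node and 162 from 484 spleen members. Those with it had more Ccr3 (44.9 against 10.8 CPM in lymph node, 68.1 against 14.1 in spleen), Tnfrsf4 (866 against 505 and 1560 against 723 CPM) and Ctla4 (369 against 206 and 810 against 324 CPM). They had less Tcf7, a factor of resting T cells (43.1 against 84.3 and 19.7 against 93.7 CPM), and less Bcl2 (110 against 156 and 73.5 against 199 CPM). Il1rl1 divided 57 from 431 and 82 from 564. Members with it had more Itgb7, an integrin chain of gut homing (1152 against 660 and 884 against 590 CPM), and less Lag3 (15.4 against 75.7 and 23.7 against 67.0 CPM) and Cxcr3 (118 against 260 and 74.5 against 122 CPM). Members with Klrg1 held more of the rule's genes, with a median of 8 against 6 in the lymph node and 10 against 7 in the spleen. For Il1rl1 these medians were 9 against 6 and 10 against 7. The part of this in either split was not tested. Median depth differed little between the sides, at 3336 against 3401.5 UMIs for Klrg1 in the lymph node and 3102.5 against 3092.5 in the spleen. Other-type markers were found in 7 of the 158 lymph node members with Klrg1 against 27 of the 330 without it. In spleen they were found in 5 of the 162 against 103 of the 484. For Il1rl1 the counts were 2 of 57 against 32 of 431 and 4 of 82 against 104 of 564. Spleen members with such markers had Tnfrsf4 at 148 CPM against 1100 in those without, Ctla4 at 73.9 against 524 and Bcl2 at 320 against 135. The part of these cells in both splits was not tested.

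Itgae, the integrin chain CD103 that binds epithelial cadherin, divided 87 from 401 lymph node and 306 from 340 spleen members. Those with it had less Tcf7 (17.0 against 81.8 and 42.8 against 104 CPM) and less Itga4 (57.7 against 129 and 13.3 against 27.2 CPM). They also held more of the rule's genes, with a median of 8 against 6 in the lymph node and 9 against 6 in the spleen. For Itgae, other-type markers were found in 3 of the 87 against 31 of the 401 lymph node members. In spleen they were found in 31 of the 306 against 77 of the 340, and their part was not tested. Cxcr3 divided 200 from 288 and 138 from 508. Members with it had more Ccl5 (463 against 222 and 339 against 126 CPM) and Nkg7 (323 against 134 and 176 against 108 CPM). They had less Il1rl1 (19.5 against 58.9 and 16.8 against 54.0 CPM) and less Ccr6 (24.1 against 58.9 and 48.6 against 134 CPM). They were also deeper, with a median of 3922.5 against 2961.5 UMIs in the lymph node and 4026 against 2987.5 in the spleen, and the part of depth in this split was not tested. For Cxcr3, other-type markers were found in 19 of the 200 against 15 of the 288 lymph node members. In spleen they were found in 10 of the 138 against 98 of the 508, and their part was not tested. Members with Cxcr3 held a median of 7 against 6 rule genes in lymph node and 8 against 7 in spleen. The medians for Ikzf2 were the same. Ikzf2 divided 409 from 79 and 531 from 115. Members with it had less of the protease Gzma (5.12 against 210 CPM in lymph node, 1.07 against 58.8 in spleen), less Zbtb16, a factor of innate-like T cells (1.92 against 32.3 and 5.87 against 40.9 CPM), and less Cxcr6 (39.7 against 194 and 170 against 698 CPM). They had more Tnfrsf4 (692 against 239 and 1084 against 184 CPM) and Penk (67.8 against 3.23 and 66.2 against 2.56 CPM). Other-type markers were found in 22 of the 409 with Ikzf2 against 12 of the 79 without it in lymph node, and in 52 of the 531 against 56 of the 115 in spleen. Without those cells Gzma had 7 UMIs against 0 in the lymph node and 1 against 0 in the spleen, so its difference rested on the marked cells. Zbtb16 then had 1 UMI against 8 and 3 against 7, Cxcr6 was at 30.4 against 141 and 93.6 against 463 CPM, Tnfrsf4 at 707 against 262 and 1191 against 312, and Penk at 73.3 against 3.80 and 74.4 against 5.20.

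Between tissues, lymph node members had more Cxcr3, Ccl5 and Klrg1, and less Icos, Itgae and Ctla4, than spleen members. Of 5260 genes tested, 2.03% were at least 1.5-fold higher and 4.03% at least 1.5-fold lower in lymph node members. Cxcr3 was at 245 CPM in lymph node members against 116 in spleen members, a ratio of 2.11 (1.81 to 2.47), and its ratio in other cells was 3.80. Ccl5 was at 334 against 182 CPM, a ratio of 1.84, against 4.41 in other cells. Klrg1 was at 220 against 153 CPM (ratio 1.44, 1.24 to 1.66), and at 5.23 against 1.85 CPM in other cells, so it was higher in lymph node there too. Without members that held other-type markers the Klrg1 ratio was 1.28 (1.10 to 1.48). Icos was at 310 CPM in lymph node members against 755 in spleen members (ratio 0.411, 0.374 to 0.452), where other cells had 0.868. Itgae was at 68.9 against 230 CPM (ratio 0.300, 0.245 to 0.364), where other cells had 0.558. Ctla4 was at 256 against 444 CPM (ratio 0.578), where other cells had 1.01. Foxp3 was at 177 against 199 CPM, with an interval that includes equality (ratio 0.890, 0.770 to 1.03). Without members that held other-type markers the Foxp3 ratio was 0.790 (0.681 to 0.916), an interval that leaves out equality.

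The genes with the largest tissue ratios on the lymph node side were Spp1, Art2b, Itga4, Gimap7, Tnfsf8, Dtx1, Nrip1 and Gimap4. Art2b, an ADP-ribosyltransferase of the T cell surface, was at 76.9 CPM in lymph node members against 7.95 in spleen members, a ratio of 9.68 (5.91 to 16.8), and 3.52 in other cells. Itga4, an integrin chain of the VCAM-1 receptor, was at 118 against 20.8 CPM (ratio 5.69, 4.14 to 7.97), against 1.87 in other cells, and was found in 146 lymph node and 39 spleen members. Gimap7, a GTPase of lymphocytes, was at 322 against 81.7 CPM (3.94), against 2.31 in other cells. Spp1 (osteopontin) had 123 UMIs in lymph node members, of which 102 lay in 1 of the 7 cells with any, against 1 UMI in spleen members, a ratio of 149 (26.2 to 5924). Tnfsf8 was at 81.2 against 21.6 CPM over all members but at 16.9 and 17.0 CPM over members with a Foxp3 UMI.

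On the spleen side stood Pxdc1, Jaml, H2-Ab1, Lyz2, Tmem176a, Apol9b, St3gal6 and Tmem176b. Several were higher in the spleen members that hold other-type markers, so the ratios were also taken without those cells. Pxdc1 was at 3.74 CPM in lymph node members against 113 in spleen members (ratio 0.0332), and its ratio was 0.0194 without the marked cells. Jaml, an adhesion molecule, had ratios of 0.104 and 0.166, St3gal6 of 0.165 and 0.261, and Tmem176a of 0.184 and 0.254. Apol9b, an interferon-inducible gene, was at 16.03 against 90.5 CPM (ratio 0.177) and had a like ratio of 0.200 in other cells. Lyz2 and H2-Ab1 are themselves markers of that set: Lyz2 had a ratio of 0.163, and 0.272 (0.0281 to 1.36) without the marked cells, while 190 of the 210 H2-Ab1 UMIs of spleen members lay in 1 cell and its ratio became 1.74 (0.742 to 4.29). For Cxcr6 the ratio was 0.249 with and 0.360 without the marked cells, for Il7r 0.540 and 0.706, for Icos 0.411 and 0.385, and for Itgae 0.300 and 0.283.

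**Figure D5:**
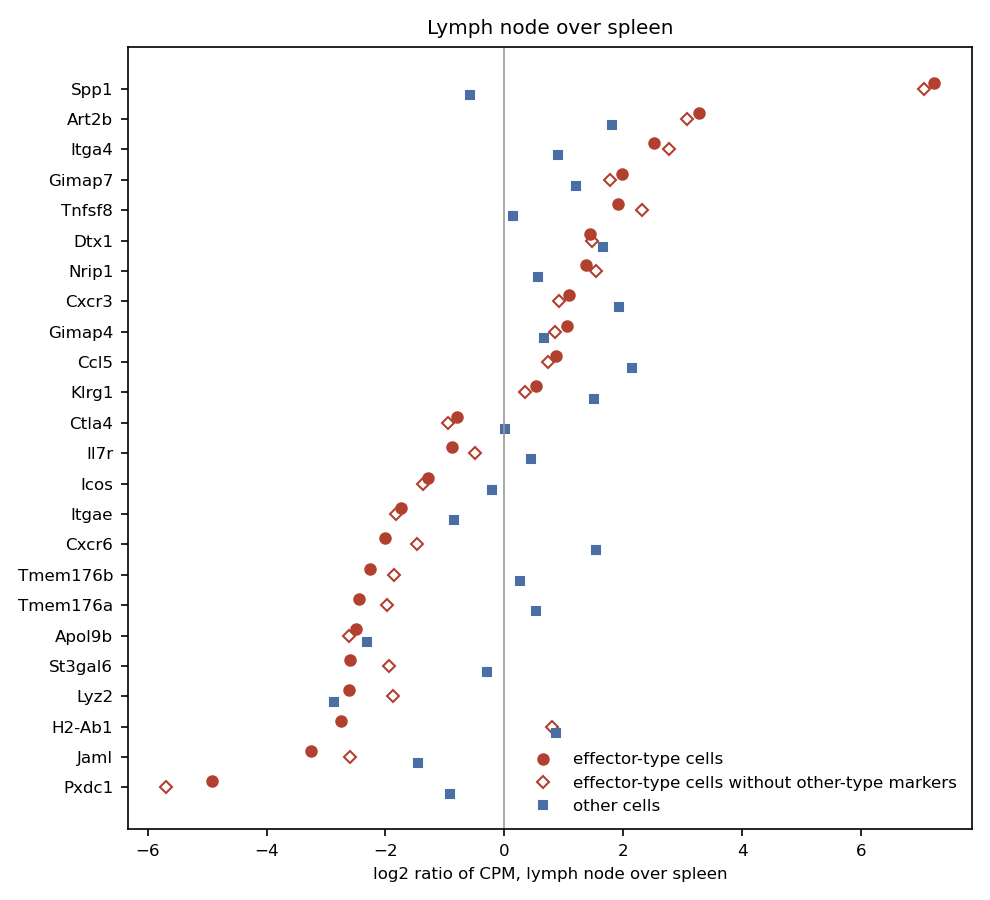
Log2 ratio of CPM in lymph node over spleen (x axis) for the genes with the largest ratios on either side and 8 effector genes. Filled circles are effector-type cells, open diamonds effector-type cells without other-type markers and squares other cells; each point is 1 library over 1 library, and H2-Ab1 changes side (ratio 1.74) once the marked cells are left out.

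By group, quiescence (median 0.04) and lymph node homing genes (0.20) were near level between the members of the tissues, where all genes tested had a median of -0.04. Of the effector transcription factors 1 of 11 was at least 1.5-fold higher and 3 lower in lymph node members, of the cytokine receptors 1 and 4 of 17, and of tissue homing genes 3 and 3 of 16. Ribosomal protein genes had a median of 0.10, with 76 of 80 higher in lymph node members and 0 past 1.5-fold. Sterol synthesis genes had a median of 0.43, with 3 of 13 past 1.5-fold higher. Myc was at 18.7 CPM in lymph node members and 35.8 in spleen members (ratio 0.523, 0.341 to 0.786), against 0.827 in other cells, from 35 and 81 UMIs.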

How the data were processed

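Single cells were profiled with a 10x 3' V2 kit. The deposited values are raw UMI counts per gene and barcode, for which the submitters' processing notes name Cell Ranger 3.0.1 and mm10. Every deposited barcode held at least 500 UMIs. Kept cells had 500 or more genes and no more than 10% mitochondrial UMIs; 259 lymph node and 297 spleen barcodes failed. Scrublet (scanpy 1.11.5) called 0 doublets in either library, which at this size means that it did not work, so none were removed. Alternatives left out the highest 6% of scores or the 5% of cells with most UMIs.

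Members followed the stated rule. Members, gene lists and alternatives were chosen with earlier results of these data known, and some lists come from an earlier analysis of them. Counts were summed per group and scaled to CPM; intervals are exact Poisson (levels), Clopper-Pearson (shares) and exact conditional (ratios), at 95% (scipy 1.17.1). No test was made, since each tissue has 1 library. Where shares of cells with a UMI are said to be thinned, each cell was drawn down to 1200 UMIs, and 21 lymph node and 28 spleen members and 231 and 495 other cells below that depth were left out.

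Named genes had at least 50 CPM and 100 UMIs in both libraries (60 UMIs among Foxp3-detected cells). Between tissues the limits were 50 CPM and 60 UMIs, but not in each library. Pxdc1 had 7 UMIs in lymph node members and Spp1 had 1 in spleen members. Those named were the 12 on each side (6 among Foxp3-detected cells and 8 between tissues) with the ratio bound farthest from 1. From each list up to 4 members came by size of ratio. T cell receptor, immunoglobulin, haemoglobin, mitochondrial and ribosomal protein genes were set aside from the first rule. Genes outside these rules, among them those of the splits and of other cell types, were chosen after their values were seen. Positions are those of GENCODE M21 (GRCm38). The scripts were tested on simulated counts. Results for some genes are not reported here.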

Additional observations from a re-analysis of the deposited data

Results flagged for a closer look

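For 3 genes the ratio of effector-type over other cells ran in opposite directions in the tissues, with a value above 1 in lymph node and below 1 in spleen. The difference was not tested, since each tissue has 1 library. Spp1 had a log2 ratio that was 7.79 higher in lymph node than in spleen, and 102 of its 123 lymph node UMIs lay in 1 cell. Itga4 differed by 1.60 on the log2 scale: it was at 118 CPM in members against 84.9 in other cells of lymph node, and at 20.8 against 45.3 CPM in spleen. Gimap7 differed by 0.77. With 1 library per tissue no library could be compared with others of its group.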

How the results depend on the processing

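No paired analysis was possible because each tissue has 1 library and the labels give no replicate numbers. Of 250 alternative values for the 18 results that answer a comparison, 204 stayed within the main interval or within 1.5 times the main count, 46 moved and 0 changed direction. Shares and gene counts have no direction to change, so the 0 does not speak for them. Of 2756 for lists and single genes, 8 (in 5 results) turned a list median whose interval, set by the ranks of its genes' ratios, left out 0. Counting values near 0 as well, 139 changed sign, all of them medians of lists (36 results) and 0 of single genes. Of 90 results for single genes over other cells, 36 moved by over 1.5 times under some alternative.

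The share of members (10.1% in lymph node, 9.87% in spleen) became 14.5% and 12.7% with at least 4 rule genes, 7.18% and 7.96% with at least 6, 4.68% and 6.43% at 1200 UMIs, 20.5% and 21.2% with at least 1000 genes per cell, and 7.51% and 5.57% without cells with other-type markers when Cd74 and Cst3 count as markers, or 8.73% in spleen when they do not. The ICRE share became 0% in lymph node without cells with other-type markers when Cd74 and Cst3 count (0.317% when they do not) and 0.533% in spleen without the 5% of cells with most UMIs; over 10 alternatives its lowest and highest values were 0% and 0.719% for the lymph node, 0.533% and 2.64% for the spleen. Ribosomal protein medians over other cells (-0.24 and -0.32) became -0.17 and -0.24 with at least 4 rule genes, -0.28 in lymph node with 6, -0.51 and -0.43 at 1200 UMIs, -0.31 and -0.41 with 1000 genes, -0.37 and -0.47 under median-ratio scaling, -0.35 and -0.47 with totals that leave out ribosomal protein and mitochondrial genes, -0.37 and -0.47 with other cells weighted to the depth of members, and -0.39 in spleen without other-type markers. Over other Foxp3-detected cells (-0.37 and -0.48) they became -0.30 (4 rule genes) and -0.41 (6) in lymph node, -0.57 and -0.62 at 1200 UMIs, -0.58 and -0.74 under median-ratio scaling, -0.56 and -0.74 under the reduced totals, -0.43 and -0.60 without the deepest 5%, -0.43 in lymph node with depth weights, and in spleen -0.55 without the highest doublet scores and -0.56 without other-type markers. The tissue counts (107 genes higher, 212 lower) became 315 and 395 at 1200 UMIs and 220 and 361 without other-type markers, and the higher side became 205 under the reduced totals and 162 with each cell weighted equally. The cause of these moves was not tested.

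Both scalings moved all log2 ratios over other cells by between -0.12 and -0.15, and over Foxp3-detected cells by between -0.19 and -0.25. Under them the oxidative phosphorylation medians became -0.012 and -0.0012 in lymph node, -0.040 and -0.038 in spleen, and -0.097 and -0.098 over Foxp3-detected spleen cells. The spleen interferon median became -0.012 under median-ratio scaling, and that of Myc targets 0.038 with at least 4 rule genes. Depth weights moved Ly6c1 in lymph node (ratio 0.176) to 0.337, and at least 1000 genes per cell moved Satb1 there (0.372) to 0.575. Low counts limit Myc (35 and 81 UMIs in members) and ICRE (1 and 7).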
